A study of Mus musculus with 2 samples.

Results

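The genes followed here encode components of the heart's extracellular matrix, read by total RNA sequencing of newborn mouse hearts. They are 10 in number: 3 adhesive glycoproteins (Fn1, Tnc and Postn), the proteoglycans Agrn and Vcan, the hyaluronan partners Has2 and Hapln1, and the small leucine-rich proteoglycans Bgn, Dcn and Lum. They were taken as the rows of both gene tables whose identifier, without its version, carries 1 of these 10 symbols in the GENCODE mouse annotation. All 10 were found, among 43346 genes. The splice forms of Fn1, Postn, Vcan and Agrn were read from the matching transcript tables, which list 42 annotated transcripts of these genes.

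The series held 1 group, healthy whole hearts of strain B6NTac;B6NCrl/Lap at postnatal day 0, from pools of male and female mice with no genetic change or treatment named. It had 2 biological replicates, described as independent tissue isolates that carry the same donor label. Replicate 1 pooled 15 mice, and the number in replicate 2 was not given. Because there was no second age, tissue or treatment, nothing about these genes could be compared with an older or an unborn heart, and the word neonatal describes the samples, not a measured difference.

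The matrix around heart cells is a mesh of collagen fibres, adhesive glycoproteins and hyaluronan, a long sugar chain spun out at the cell surface and held in place by versican and link protein. Fibronectin, tenascin-C and periostin are matrix proteins of developing and healing hearts, and agrin is a heparan sulphate proteoglycan of basement membranes that in mice has been reported to stimulate division of newborn heart muscle cells. Biglycan, decorin and lumican are small proteoglycans that bind collagen fibrils.

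Expected counts over genes summed to 69946215 in replicate 1 and 73615802 in replicate 2. The 8 heart muscle marker genes listed were all detected, with a summed 10509.4 TPM in replicate 1 and 10583.5 TPM in replicate 2. TPM is a relative transcript abundance, divided by length and scaled to the same total in each library. Marker lists of other tissues stood unequally in the replicates. Urothelium markers summed to 10.09 TPM in replicate 1 and 120.99 TPM in replicate 2, and thymus and lymphocyte markers to 7.96 TPM in replicate 1 and 0.55 TPM in replicate 2. These libraries are bulk samples, so fewer cells of a type and less RNA per cell cannot be told apart. With 2 samples of 1 group no p-value was computed, and the spread between the replicates is the only error.

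Matrix glycoprotein transcripts spanned a range from over 100 TPM to nearly none. Of the 10 genes, 8 were detected, defined as 1 TPM or more in both replicates, beside 24.2% of all genes and 47.1% of 21461 protein-coding genes. Here and below, protein-coding genes are those of the nuclear genome, so genes of the mitochondrial genome are left out of their shares, medians and ranks. Has2 and Hapln1 were below 1 TPM in both replicates. The 10 genes together had 355.62 TPM in replicate 1 and 408.83 TPM in replicate 2, or 0.135% and 0.154% of the TPM of protein-coding genes in those replicates. The median protein-coding gene with a mean of at least 1 TPM stood at 6.47 TPM in replicate 1 and 6.67 TPM in replicate 2, so each of the 8 detected genes was above it in both replicates.

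**Figure D1:**
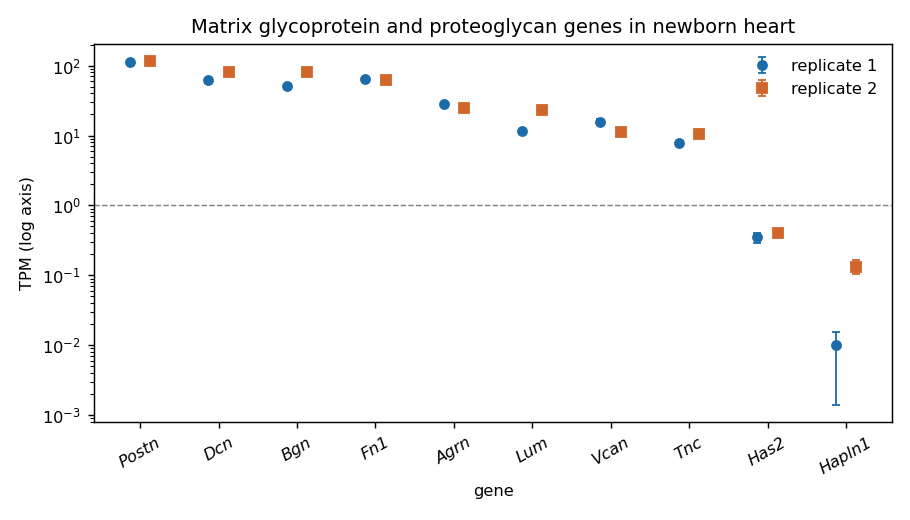
Level of each of the 10 matrix genes in TPM on a log axis (y) by gene (x), with replicate 1 as circles and replicate 2 as squares. Bars are the interval the authors deposited for each estimate, mostly smaller than the symbol, and the dashed line is 1 TPM. Postn stood highest in both replicates, and Has2 and Hapln1 were the pair below the line.

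Postn, at 114 ± 1.22 TPM (SD, n = 2, as for all values given with ±), had the highest mean, followed by Dcn, Bgn, Fn1, Agrn, Lum, Vcan, Tnc, Has2 and Hapln1. Neighbours in this order were called separated when their log2 ratio of TPM had the same sign and exceeded 2.15 in both replicates. That limit, 4.44-fold, is the 95th percentile of the absolute log2 difference between the replicates over the 11594 genes whose mean reached 1 TPM. Of the 9 neighbouring pairs, 1 passed, Tnc over Has2, with log2 ratios of 4.16 in replicate 1 and 4.36 in replicate 2. The other 8 neighbours did not differ beyond this spread. For Bgn over Fn1 the log2 ratios were −0.32 in replicate 1 and 0.38 in replicate 2, and for Lum over Vcan they were −0.44 in replicate 1 and 1.04 in replicate 2, so those orders turned round between replicates. Among all 45 pairs of the 10 genes, 22 were separated. Before division by length the order differed: by expected count Fn1 came first, with 41083 in replicate 1 and 40706 in replicate 2, and Lum lay between Tnc and Has2.

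Periostin is a secreted protein with fasciclin domains made by cardiac fibroblasts and valve cells. Postn (ENSMUSG00000027750.12, chr3:54361109-54391037, plus strand, GRCm38) had 113.46 TPM in replicate 1 and 115.19 TPM in replicate 2, from 33837 and 36650 expected counts in those replicates. The deposited intervals overlapped, and the log2 difference was 0.00 (replicate 1 minus replicate 2, centred on the median gene, as for every difference below). By mean TPM Postn had rank 335 among the protein-coding genes.

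Periostin forms differ in short alternative exons near the C-terminus, a heparin-binding region. Both exons, read from the GENCODE M21 transcript sequences on GRCm38, are shown because the forms are told apart by them alone. The alternative exon is in capitals and the 15 bases of the exons on each side are in lower case. The upstream exon lies at chr3:54380412-54380492 (81 bases) and the downstream exon at chr3:54385671-54385754 (84 bases), both on the plus strand.
Postn upstream alternative exon: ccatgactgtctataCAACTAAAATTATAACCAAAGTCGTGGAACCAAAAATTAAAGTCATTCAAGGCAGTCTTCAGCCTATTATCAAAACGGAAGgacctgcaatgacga
Postn downstream alternative exon: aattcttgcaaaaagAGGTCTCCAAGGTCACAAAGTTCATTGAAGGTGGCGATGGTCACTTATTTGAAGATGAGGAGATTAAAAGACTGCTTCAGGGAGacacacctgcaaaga

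The main Postn form lacked both exons. Postn-204, without either, held 43.1% of the gene's TPM in replicate 1 and 68.0% in replicate 2, at 48.95 and 78.31 TPM in those replicates. Postn-203, with the upstream exon alone, held 30.6% in replicate 1 and 29.0% in replicate 2. These shares were 1.57 percentage points apart, the smallest difference among the 3 larger forms of Postn. Postn-201, with the downstream exon alone, held 23.0% in replicate 1 and 0.52% in replicate 2, at 26.11 and 0.60 TPM in those replicates. The deposited intervals of its TPM, 23.3 to 27.5 in replicate 1 and close to 0 to 1.20 in replicate 2, did not overlap. Postn-202, with both exons, held 0.00% in replicate 1 and 0.21% in replicate 2. The upstream exon was thus in 29.9 ± 0.961% of Postn TPM, and the downstream exon in 12.0 ± 15.5%, a mean that stands for neither replicate.

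Differences in transcript share were read against the spread of all genes. Over 34178 transcripts of genes at a mean of 5 TPM with 2 or more transcripts, the 95th percentile of the absolute difference between replicates was 38.0 percentage points. Among the 15597 of those transcripts holding 5% or more in a replicate, 11.0% exceeded it. No annotated transcript of Postn, Fn1, Vcan or Agrn did. The largest difference among them was −24.8 points for Postn-204, against a median of 11.5 points in the set at 5% or more.

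**Figure D2:**
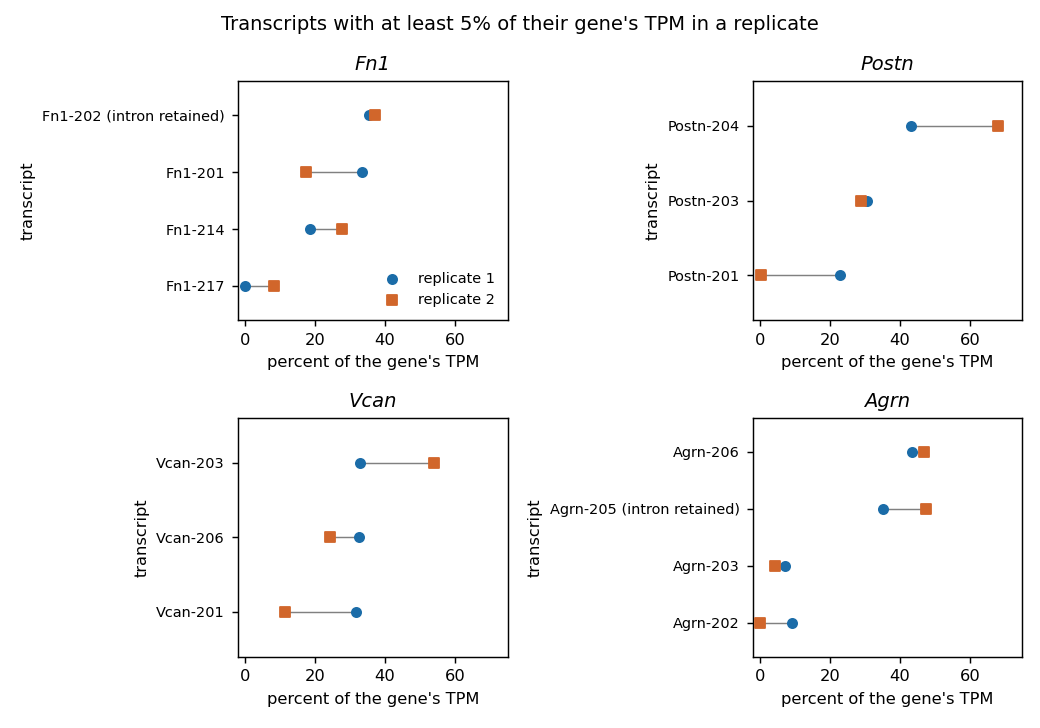
Share of each gene's TPM (x, percent) in the transcripts with at least 5% in a replicate (y), for Fn1, Postn, Vcan and Agrn, with replicate 1 as circles and replicate 2 as squares. Lines join the replicates. Postn-203, Fn1-202 and Agrn-206 were close between replicates, while Postn-204, Postn-201, Vcan-203 and Vcan-201 were more than 20 points apart.

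Fibronectin is the adhesive glycoprotein that cells assemble into fibrils through integrins. Fn1 (ENSMUSG00000026193.11, chr1:71585520-71653200, minus strand) had 64.83 TPM in replicate 1 and 61.95 TPM in replicate 2 (63.4 ± 2.04), and the most expected counts of the 10 genes. Its log2 difference was 0.09, and 87.3% of genes differed more between the replicates.

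Tissue-made fibronectin differs from the liver-made form in blood plasma by the type III repeats called extra domains B and A (EDB and EDA), each encoded by 1 exon. Both are printed because EDB sets apart the main coding forms and EDA is carried by both of these. EDB lies at chr1:71613763-71614035 (273 bases) and EDA at chr1:71603660-71603929 (270 bases), on the minus strand. They are given 5′ to 3′ along the transcript Fn1-201 of GENCODE M21, with the alternative exon in capitals and flanking exon bases in lower case.
Fn1 EDB: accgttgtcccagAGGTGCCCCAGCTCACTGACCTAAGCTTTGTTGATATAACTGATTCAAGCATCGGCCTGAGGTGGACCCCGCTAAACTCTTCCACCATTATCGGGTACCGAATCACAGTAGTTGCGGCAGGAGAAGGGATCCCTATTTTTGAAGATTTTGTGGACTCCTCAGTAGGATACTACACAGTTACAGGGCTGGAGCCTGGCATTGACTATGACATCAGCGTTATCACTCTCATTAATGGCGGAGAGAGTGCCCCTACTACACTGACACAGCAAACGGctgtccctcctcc
Fn1 EDA: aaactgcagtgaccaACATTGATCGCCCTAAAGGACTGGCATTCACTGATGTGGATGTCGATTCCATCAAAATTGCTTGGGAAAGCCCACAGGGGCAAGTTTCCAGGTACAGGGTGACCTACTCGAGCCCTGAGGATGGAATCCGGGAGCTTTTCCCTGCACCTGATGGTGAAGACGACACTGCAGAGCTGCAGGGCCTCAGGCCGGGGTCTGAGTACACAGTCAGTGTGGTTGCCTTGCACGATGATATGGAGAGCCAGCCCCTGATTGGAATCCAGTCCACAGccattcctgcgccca

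Most protein-coding Fn1 RNA carried EDA. Of the TPM in protein-coding transcripts, 97.6% in replicate 1 and 79.6% in replicate 2 included it (88.6 ± 12.7%). EDB was in 56.8% in replicate 1 and 30.4% in replicate 2 (43.6 ± 18.7%), all from Fn1-201, which also carries EDA. Over all annotated transcripts the shares were lower, with EDA in 57.2% in replicate 1 and 45.5% in replicate 2 and EDB in 33.3% in replicate 1 and 17.4% in replicate 2. The largest transcript of all by mean share was Fn1-202, annotated as a retained intron, with 35.4% in replicate 1 and 37.2% in replicate 2. Its 17 exons begin downstream of EDB and omit EDA, so the inclusion of EDA depends on whether it is counted.

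The main coding forms were Fn1-201 and Fn1-214. Fn1-201 held 33.3% in replicate 1 and 17.4% in replicate 2 and has EDB and EDA. Fn1-214, with EDA and no EDB, held 18.6% in replicate 1 and 27.7% in replicate 2. Their order was thus opposite in the replicates. Fn1-217, which lacks EDA, held 0.17% in replicate 1 and 8.40% in replicate 2, and its TPM of 0.11 in replicate 1 and 5.21 in replicate 2 had intervals that did not overlap.

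A further site of variation, the V region, comes from 3 alternative acceptor sites of 1 exon ending at chr1:71597281. Its longest form adds 120 residues over the shortest, the middle form adds 95, and the stretch found only in the longest form holds a binding site for integrin α4β1. The junctions into that exon are shown, with the last 20 bases of the upstream exon in lower case and the first 20 after each acceptor in capitals.
Fn1 V120: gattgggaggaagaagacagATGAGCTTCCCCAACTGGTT
Fn1 V95: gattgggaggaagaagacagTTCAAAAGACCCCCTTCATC
Fn1 V0: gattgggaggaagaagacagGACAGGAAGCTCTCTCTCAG

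V120 was the main form in both replicates. It made up 88.5% of protein-coding Fn1 TPM in replicate 1 and 81.5% in replicate 2 (85.0 ± 4.97%). V95 made up 8.31% in replicate 1 and 15.2% in replicate 2. V0, the form without the region, made up 2.66% in replicate 1 and 2.91% in replicate 2. The order of these 3 forms was the same in both replicates.

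Tenascin-C is a large glycoprotein that modulates cell adhesion and appears in developing and wounded tissue. Tnc (ENSMUSG00000028364.11, chr4:63959785-64047015, minus strand) had 7.94 TPM in replicate 1 and 10.34 TPM in replicate 2 (9.14 ± 1.697), the lowest of the 8 detected genes. In TPM the log2 difference was −0.35, and in CPM, expected counts scaled by the library's total and not divided by length, it was −0.17. The effective length used for division was 6466 bases in replicate 1 and 5618 bases in replicate 2.

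Of the other tenascin and fasciclin genes listed, the scavenger receptor Stab1, with 23.6 TPM in replicate 1 and 19.9 TPM in replicate 2, had the highest mean. The TGF-beta-induced adhesion protein Tgfbi had 10.9 TPM in replicate 1 and 7.53 TPM in replicate 2. Tnxb, the tenascin of collagen-rich tissue, had 6.38 TPM in replicate 1 and 7.09 TPM in replicate 2. In all, 5 of 8 genes of that list were detected, Tnc and Postn included.

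Versican is a large chondroitin sulphate proteoglycan that binds hyaluronan and fills the cardiac jelly and valve cushions of the embryo. Vcan (ENSMUSG00000021614.12, chr13:89655312-89742509, minus strand) had 15.59 TPM in replicate 1 and 11.05 TPM in replicate 2 (13.3 ± 3.21), with 12037 expected counts in replicate 1 and 11138 in replicate 2. Its log2 difference was 0.51 in TPM and 0.19 in CPM. The effective length, which depends on the mix of forms, was 7313 bases in replicate 1 and 9099 bases in replicate 2.

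The forms of versican differ in the exons that carry its chondroitin sulphate chains, GAG-alpha (chr13:89702918-89705797, 2880 bases) and GAG-beta (chr13:89688285-89693501, 5217 bases). V0 has both, V1 only GAG-beta, V2 only GAG-alpha and V3 neither. The exon junction that sets each form apart from the others is shown 5′ to 3′ on the minus strand, with the last 20 bases of the upstream exon in lower case and the first 20 of the downstream exon in capitals. V0 and V1 share the start of GAG-beta in capitals, and V2 and V3 share the start of the exon after it.
V0: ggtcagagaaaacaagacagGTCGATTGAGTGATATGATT
V1: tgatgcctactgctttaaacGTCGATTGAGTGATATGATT
V2: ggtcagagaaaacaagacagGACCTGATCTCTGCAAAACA
V3: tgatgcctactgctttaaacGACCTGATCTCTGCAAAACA

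V0, V1 and V3 made up most of Vcan TPM. V0 (Vcan-203) held 33.0% in replicate 1 and 54.0% in replicate 2, at 5.15 and 5.97 TPM in those replicates. V1 (Vcan-206) held 32.5% in replicate 1 and 24.4% in replicate 2. V3 (Vcan-201), the form without chain-bearing exons, held 31.8% in replicate 1 and 11.5% in replicate 2, at 4.96 and 1.27 TPM in those replicates with intervals that did not overlap. V2 (Vcan-202), known as the form of the brain, held 0.00% in replicate 1 and 4.39% in replicate 2. V0 therefore had the largest share in both replicates, by under 1 point over V1 in replicate 1. In that replicate the deposited TPM intervals of V0 (4.88 to 5.29) and V1 (4.75 to 5.35) overlapped. Of the expected counts, which grow with transcript length, V0 held 54.8% in replicate 1 and 72.0% in replicate 2, and V3 held 8.84% in replicate 1 and 2.57% in replicate 2. GAG-beta was in 65.6% of Vcan TPM in replicate 1 and 78.5% in replicate 2 (72.0 ± 9.13%), and GAG-alpha in 33.0% in replicate 1 and 58.4% in replicate 2 (45.7 ± 17.9%).

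Agrin organises the neuromuscular synapse and also lies in basement membranes of many tissues. Agrn (ENSMUSG00000041936.14, chr4:156165290-156197488, minus strand) had 28.40 TPM in replicate 1 and 24.95 TPM in replicate 2 (26.7 ± 2.44), with 14401 expected counts in replicate 1 and 12014 in replicate 2. The log2 difference was 0.21 in TPM and 0.34 in CPM.

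Agrin is made with a long N-terminus, which is secreted into matrix, or a short one, which anchors it in the membrane. Agrin forms also differ in small exons called y and z. The z exons decide in mice whether agrin can cluster acetylcholine receptors, and motor neurons include them. All are shown since they tell the forms apart, with the alternative exon in capitals and 15 flanking bases in lower case, on the minus strand. The exon y lies at chr4:156169546-156169557 (12 bases), z8 at chr4:156168546-156168569 (24 bases) and z11 at chr4:156167777-156167809 (33 bases).
Agrn y: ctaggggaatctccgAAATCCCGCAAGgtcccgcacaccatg
Agrn z8: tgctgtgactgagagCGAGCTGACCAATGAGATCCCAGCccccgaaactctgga
Agrn z11: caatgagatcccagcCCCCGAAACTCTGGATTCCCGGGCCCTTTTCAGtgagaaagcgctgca

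Among protein-coding transcripts the long form without y or z exons led in both replicates. Agrn-206, which has the long N-terminus and none of the 3 small exons, held 43.5% of Agrn TPM in replicate 1 and 46.9% in replicate 2, at 12.36 and 11.71 TPM in those replicates. Of the protein-coding TPM alone it held 72.3% in replicate 1 and 91.3% in replicate 2 (81.8 ± 13.4%). Agrn-203, a form with the short N-terminus and all 3 small exons, held 12.1% of protein-coding TPM in replicate 1 and 8.73% in replicate 2. It is the only complete coding transcript of the annotation with any of those exons, so other combinations of y and z cannot be assigned from these tables. Agrn-202, with the short N-terminus alone, held 9.39% of all Agrn TPM in replicate 1 and 0.00% in replicate 2. The short N-terminus exon was thus in 16.7% of Agrn TPM in replicate 1 and 4.49% in replicate 2.

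A short transcript annotated as a retained intron, Agrn-205, held 35.3% of Agrn TPM in replicate 1 and 47.5% in replicate 2, and 13.1% of the gene's expected counts in replicate 1 and 19.5% in replicate 2. In replicate 2 its share of all Agrn TPM was above the 46.9% of Agrn-206. Agrn-205 covers the 3′ end of the gene and includes z8. Counted over all transcripts, z8 was therefore in 42.6% in replicate 1 and 52.0% in replicate 2, against 12.1% and 8.73% of the protein-coding TPM of those replicates. For z8 the answer depends on whether non-coding transcripts are counted.

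**Figure D3:**
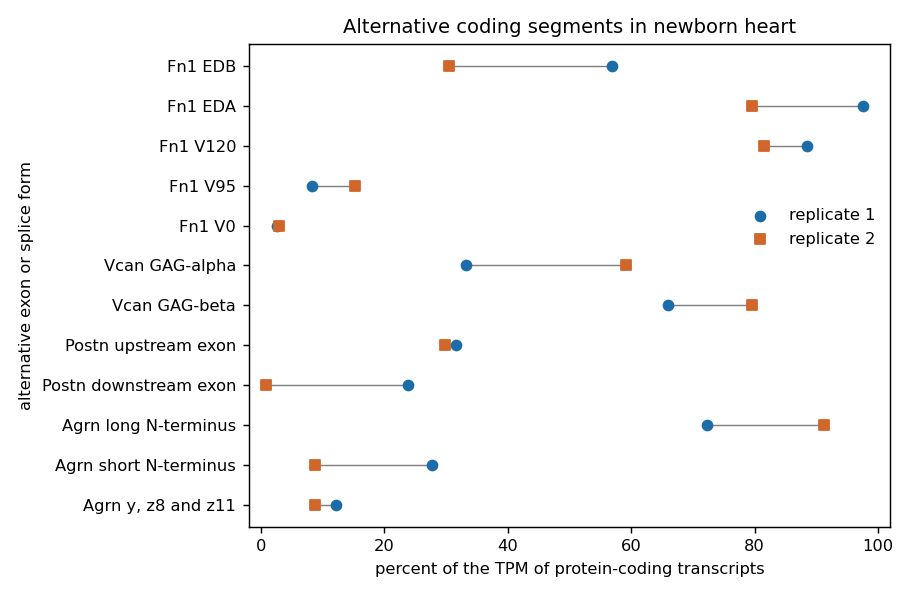
Share of the TPM of protein-coding transcripts (x, percent) that carries each alternative exon, acceptor form or N-terminus (y), with replicate 1 as circles and replicate 2 as squares joined by a line. EDA and V120 of Fn1 and the long N-terminus of Agrn were above 70% in both replicates, and V0 of Fn1 was under 3% in both.

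The agrin receptor Lrp4 and its partner genes were detected in 4 of 5 cases. Dag1, which encodes dystroglycan, the laminin and agrin receptor of muscle cells, had 59.6 TPM in replicate 1 and 55.4 TPM in replicate 2. The synaptic scaffold gene Rapsn had 13.0 TPM in replicate 1 and 16.4 TPM in replicate 2, and the kinase adaptor Dok7 had 7.21 TPM in replicate 1 and 10.16 TPM in replicate 2. Musk, the kinase through which agrin acts at the synapse, was the gene not detected, at 0.04 TPM in replicate 1 and 0.00 TPM in replicate 2. Agrn was not the most abundant basement membrane proteoglycan: Hspg2, the perlecan gene, had 134 TPM in replicate 1 and 125 TPM in replicate 2. The collagen-binding Sparc had 188 TPM in replicate 1 and 221 TPM in replicate 2, and the nidogen gene Nid1 had 34.5 TPM in replicate 1 and 33.1 TPM in replicate 2. Of that list 7 of 8 genes were detected.

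Hyaluronan synthase 2, the enzyme that makes the hyaluronan of the embryonic mouse heart, had few reads. Has2 (ENSMUSG00000022367.7, chr15:56665627-56694539, minus strand) had 0.35 TPM in replicate 1 and 0.41 TPM in replicate 2 (0.380 ± 0.0424). Its expected counts were 144 in replicate 1 (95% exact Poisson interval 121 to 169.5) and 179 in replicate 2 (154 to 207). The deposited intervals of TPM overlapped. The other synthase genes were also low, with Has1 at 0.73 TPM in replicate 1 and 0.94 TPM in replicate 2, and Has3 at 0.65 TPM in replicate 1 and 1.21 TPM in replicate 2. Such intervals cover counting error only.

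Hyaluronan and proteoglycan link protein 1 locks versican onto hyaluronan. Hapln1 (ENSMUSG00000021613.8, chr13:89539796-89611652, plus strand) had 0.01 TPM in replicate 1 and 0.13 TPM in replicate 2, from 3 expected counts in replicate 1 (exact interval 0.619 to 8.77) and 70 in replicate 2 (54.6 to 88.4). As a share of the library's counts, replicate 1 stood at 0.0451 of replicate 2, with a 95% exact interval of 0.00908 to 0.137 for counting error. Hapln1 was the least abundant of the 10 genes in both replicates. Hapln2, Hapln4 and the brain hyalectan Bcan had 0 counts in both replicates, which allows up to 3 counts, or 0.0429 CPM in replicate 1 and 0.0408 CPM in replicate 2. Vcan was the 1 gene detected of the 8 hyalectan and link protein genes. The cartilage proteoglycan Acan had 1.18 TPM in replicate 1 and 0.30 TPM in replicate 2, Hapln3 had 0.02 TPM in replicate 1 and 0.71 TPM in replicate 2, and Ncan had 0.09 TPM in replicate 1 and 0.00 TPM in replicate 2.

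Most genes that supply, clear or bind hyaluronan had higher mean TPM than the synthases. Of 16 genes on that list, Has2 included, 10 were detected. Of the 13 that are not synthases, 10 had a higher mean than any of the 3 synthases, while Cemip, Stab2 and Tnfaip6 stood below the highest of them, Has3. The sugar nucleotide enzyme Ugp2 had 32.8 TPM in replicate 1 and 31.9 TPM in replicate 2, the clearance receptor Stab1 had the values given above, and the hyaluronidase Hyal2 had 17.7 TPM in replicate 1 and 25.7 TPM in replicate 2. Past a 2-fold difference between replicates in TPM were Ugdh, which makes the UDP-glucuronate building block, at 4.31 TPM in replicate 1 and 8.97 TPM in replicate 2, and the hyaluronan receptor Cd44, at 6.73 TPM in replicate 1 and 3.30 TPM in replicate 2. Neither was past 2-fold in CPM, with log2 differences of −0.51 for Ugdh and 0.50 for Cd44.

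Decorin, biglycan and lumican transcripts had lower levels in replicate 1, each by less than 2-fold. Dcn (ENSMUSG00000019929.11, chr10:97479609-97518143, plus strand), which encodes decorin, had 61.83 TPM in replicate 1 and 81.56 TPM in replicate 2 (71.7 ± 13.95), a log2 difference of −0.38. Bgn (ENSMUSG00000031375.13, chrX:73483602-73495933, plus strand), which encodes biglycan, had 51.75 TPM in replicate 1 and 80.39 TPM in replicate 2 (66.1 ± 20.3), a log2 difference of −0.61. Lum (ENSMUSG00000036446.4, chr10:97565128-97572703, plus strand), which encodes the fibril organiser lumican, had 11.46 TPM in replicate 1 and 22.86 TPM in replicate 2 (17.2 ± 8.06), from 2161 expected counts in replicate 1 and 4523 in replicate 2. Its log2 difference of −0.97 is just inside 2-fold, and 19.9% of genes differed more. For Bgn 34.4% of genes differed more, and for Dcn 52.4%. Together the 3 genes had 125.04 TPM in replicate 1 and 184.81 TPM in replicate 2.

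The rest of that family was divided. Of the 13 genes 8 were detected, 5 of them besides Dcn, Bgn and Lum. Of those 5, Ogn, Aspn and Ecm2 were lower and Fmod and Prelp higher in replicate 1, where by construction 50.0% of all genes are lower after centring, and none of the 5 was past 2-fold. Ogn, which encodes osteoglycin, had 12.4 TPM in replicate 1 and 18.4 TPM in replicate 2, and the asporin gene Aspn had 11.6 TPM in replicate 1 and 17.3 TPM in replicate 2. The fibromodulin gene Fmod was higher in replicate 1, at 3.25 TPM there and 2.97 TPM in replicate 2. Kera, the keratocan gene, and Omd, the osteomodulin gene, had 0 counts in both replicates.

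**Figure D4:**
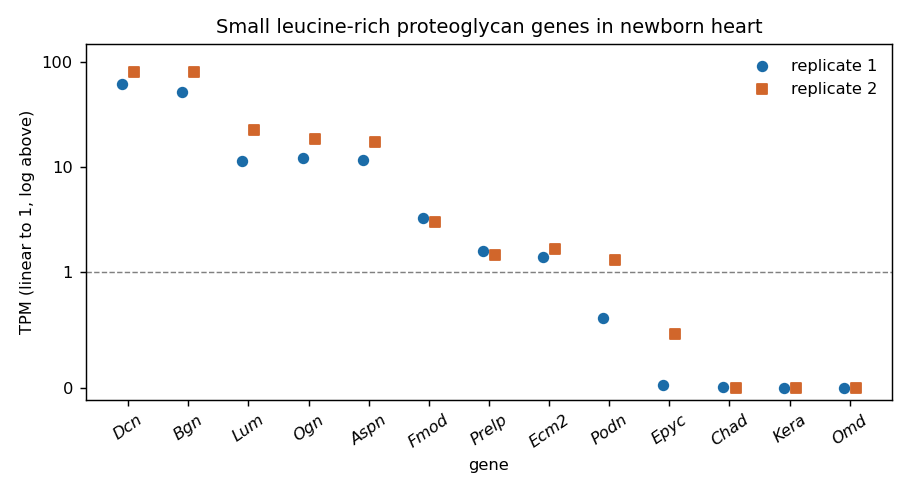
TPM (y, linear to 1 and logarithmic above) of the 13 small leucine-rich proteoglycan genes (x), with replicate 1 as circles, replicate 2 as squares and a dashed line at 1 TPM. Dcn, Bgn, Lum, Ogn and Aspn were each lower in replicate 1, and Kera and Omd were at 0.

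The summed levels of several marker lists were also lower in replicate 1. Of all genes with a mean of at least 1 TPM, 19.0% were past 2-fold in TPM, and 10.1% were past it and lower in replicate 1. Smooth muscle and pericyte markers summed to 359.64 TPM in replicate 1 and 706.07 TPM in replicate 2, with 8 of 8 lower in replicate 1. Past 2-fold were 3 of the 8, Tagln, Myh11 and Cnn1, with log2 differences of −3.22, −4.48 and −2.55. Fibroblast markers summed to 1075.59 TPM in replicate 1 and 1131.0 TPM in replicate 2, with 6 of 8 lower and 1 past 2-fold. Most of each sum was Vim, which was higher in replicate 1, at 720.14 TPM there and 667.4 TPM in replicate 2. Epicardium markers summed to 57.06 TPM in replicate 1 and 86.15 TPM in replicate 2. Of these 8 markers 5 were lower and 3 higher in replicate 1. Wt1, Upk1b and Krt19, all lower in replicate 1, were past 2-fold in TPM, and Krt19 was not in CPM. Upk1b had 5.01 TPM in replicate 1 and 20.52 TPM in replicate 2, and Krt19 had 5.85 TPM in replicate 1 and 13.75 TPM in replicate 2. For urothelium, 3 of 8 markers were detected, all 6 with a mean of at least 1 TPM were past 2-fold lower in replicate 1, and Krt20 was at 0 in both. Valve markers, 5 of 8 detected, summed to 176.48 TPM in replicate 1 and 162.89 TPM in replicate 2. Most of each sum was Tbx20, at 153.6 TPM in replicate 1 and 141.68 TPM in replicate 2. Of the 6 valve markers with a mean of at least 1 TPM, 1 was past 2-fold, Comp, higher in replicate 1. Endothelial and endocardial markers, all 8 detected, summed to 180.83 TPM in replicate 1 and 156.93 TPM in replicate 2. None of the 8 cartilage markers was detected, with Matn1 and Snorc at 0 in both replicates and sums of 2.01 TPM in replicate 1 and 3.48 TPM in replicate 2. Macrophage markers, 6 of 8 detected, summed to 44.44 TPM in replicate 1 and 47.6 TPM in replicate 2. Of the lung markers 1 of 8, Hopx, was detected, at 133.0 TPM in replicate 1 and 147.56 TPM in replicate 2. Nkx2-1 and Cldn18 were at 0. The lung list summed to 137.6 TPM in replicate 1 and 149.49 TPM in replicate 2, most of it Hopx. Of the thymus and lymphocyte markers 0 of 8 were detected, with Cd3e and Dntt at 0. The part of these lists in the values of Bgn, Dcn and Lum was not tested.

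Across the 10 genes the replicates differed about as much as for all genes with a mean of at least 1 TPM. Those genes were not matched to the 10 by level. The deposited TPM intervals did not overlap for 8 of the 10, Postn and Has2 being the exceptions, where those of 73.3% of genes with a mean of at least 1 TPM did not overlap either. A difference past 2-fold in TPM was found for 1 of the 10, Hapln1, and for 0 of the 8 detected genes, beside 19.0% of all such genes, of which 8.90% were higher and 10.1% lower in replicate 1. In CPM Hapln1 was again the only one of the 10, beside 14.5% of genes. Hapln1 lies below the mean of 1 TPM behind these shares. With no filter on level the share past 2-fold was 28.2% of 17373 genes in TPM and 28.8% in CPM. The log2 difference of Hapln1 was −1.04 in TPM and −2.87 in CPM, each with 0.1 added before the logarithm. With 1 added to TPM in place of 0.1 it was −0.14, and with the posterior mean estimate of TPM it was just inside 2-fold. Of the 10 genes 6 were lower in replicate 1, as were 4 of the 8 detected. Postn, at 0.00, was not among them, and its difference was −0.04 in CPM. The median absolute log2 difference was 0.37 for the 8 genes and 0.40 for all 11594. Genes at higher levels differed less: of 4198 genes with a mean of at least 10 TPM, 8.15% were past 2-fold in TPM. Each of the 8 detected genes except Tnc had such a mean.

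**Figure D5:**
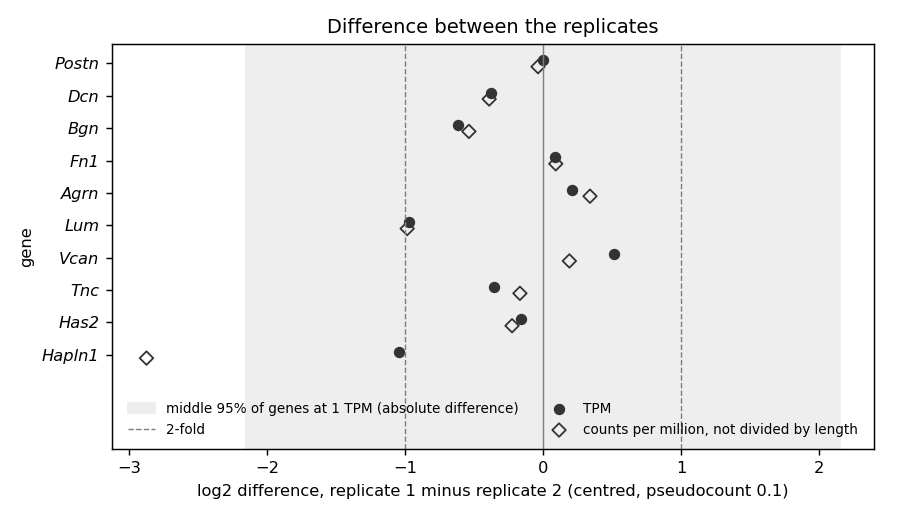
Log2 difference between the replicates (x, replicate 1 minus replicate 2, centred, 0.1 added) for each gene (y), as filled circles for TPM and open diamonds for CPM not divided by length. Shading spans the limit of 2.15 either way and dashed lines mark 2-fold. Hapln1 alone was past 2-fold, Lum was just inside, and Vcan and Tnc moved closer to 0 in counts than in TPM.

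Genes that anchor, cut and decorate these matrix proteins were mostly detected. Of 130 listed genes outside the 10, each counted once, 97 were detected, 48 of 101 at a mean of 1 TPM were lower in replicate 1, and 12 were past 2-fold in TPM, 8 of them lower in replicate 1. Of these 12 among the 101, 7 were also past 2-fold in CPM. Over all genes with a mean of at least 1 TPM the share past 2-fold was 19.0% in TPM and 14.5% in CPM. Fibronectin receptor and assembly genes were detected in 9 of 10 cases. Tns1, the tensin of fibrillar adhesions, averaged 127 ± 9.92 TPM. Itgb1 and Itga5, the subunits of the main fibronectin receptor, had 82.6 and 21.2 TPM in replicate 1 and 63.4 and 22.0 TPM in replicate 2. Itga4, a subunit of the receptor that binds the longest V form, was the gene not detected, at 0.29 TPM in replicate 1 and 0.54 TPM in replicate 2. Itgav and Itgb3, a vitronectin and fibronectin receptor pair, were both past 2-fold in TPM, with 6.03 and 1.35 TPM in replicate 1 and 17.5 and 4.34 TPM in replicate 2. In CPM Itgb3 stayed past 2-fold, with a log2 difference of −1.58, and Itgav did not, with −0.42.

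Among proteases that cleave versican and related proteins, 6 of 7 Adamts genes were detected and none of those 6 was past 2-fold. Adamts20, the gene not detected, had 0.04 TPM in replicate 1 and 0.39 TPM in replicate 2. Adamts1 led with 26.2 TPM in replicate 1 and 24.8 TPM in replicate 2, followed by Adamts9 with 6.90 TPM in replicate 1 and 9.23 TPM in replicate 2 and Adamts8 with 4.06 TPM in replicate 1 and 6.43 TPM in replicate 2. Among cell-surface heparan sulphate proteoglycans, 8 of 10 syndecan and glypican genes were detected. Gpc1 led with 59.2 TPM in replicate 1 and 53.1 TPM in replicate 2, ahead of Gpc3 and Sdc3, and Gpc5 had 0 counts in both replicates.

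Enzymes that build the sugar chains of versican, agrin, biglycan and decorin were detected in 23 of 28 cases. Of the 24 at a mean of 1 TPM, 5 were past 2-fold in TPM, near the 19.0% of all genes at that mean. Extl3, which starts heparan sulphate chains, had 16.5 TPM in replicate 1 and 16.7 TPM in replicate 2. Chpf, which extends chondroitin chains, had 13.9 TPM in replicate 1 and 12.6 TPM in replicate 2, and B3gat3, which completes the linker to the core protein, had 10.8 TPM in replicate 1 and 13.2 TPM in replicate 2. The 5 past 2-fold were Xylt1, B3galt6, Ext1 and Ndst2, lower in replicate 1, and Extl2, higher in replicate 1. In CPM Ext1, at a log2 difference of −0.23, and Extl2, at 0.56, were not past 2-fold, and the other 3 were. Of 31 other matrix glycoprotein genes 26 were detected, led by Sparc, by the elastin gene Eln at 97.5 TPM in replicate 1 and 70.6 TPM in replicate 2, and by the matricellular gene Ctgf at 97.9 TPM in replicate 1 and 69.9 TPM in replicate 2.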

How the data were processed

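Total RNA above 200 nucleotides was depleted of ribosomal RNA and read as stranded pairs of 101 nucleotides with spike-in RNAs, per the labels' protocols. The deposited notes name mm10 and GENCODE M4, and the column names are those of RSEM. No source used here names the aligner or its version.

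The authors deposited expected counts per gene and transcript, not normalized between libraries. They also deposited TPM, scaled by effective length to the whole library, and FPKM, used here as an alternative. The percent of its gene's abundance held by each transcript was deposited in the transcript tables, together with posterior mean estimates and intervals whose level is not given. Entries that are not genes, 1.74% of counts in replicate 1 and 1.98% in replicate 2, were left out of library totals.

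Names, exons and sequences came from GENCODE M21 on GRCm38. Of the 42 transcripts of the 4 spliced genes, 40 had the same length in both annotations, while 2 of Postn differed. Genes on the opposite strand overlap Fn1, Vcan, Tnc, Has2 and Hapln1. Alternative exons were those that some but not all coding transcripts include. Transcripts marked incomplete, or with under 60% of the gene's largest number of coding exons, did not define them. Any annotated transcript holding the exon was counted as including it, and acceptor forms of the Fn1 V region and the first exons of Agrn were treated in the same way.

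Log2 differences used TPM with 0.1 added, with the median gene (mean of at least 1 TPM) set to 0. The named genes were the 10, transcripts with at least 5% of their gene's TPM, the 3 most abundant other genes of each list and list genes with 0 counts. Genes named for passing 2-fold, Has1, Has3, Cemip, Stab2, Tnfaip6, Ecm2, Prelp, Adamts20, Itga4, Musk, Lrp4 and smaller transcripts were chosen after their values were seen. So were the markers Vim, Tbx20 and Hopx. The 10 genes and all lists were chosen with earlier results of these data known. With 1 group there was no test. Nothing beyond separate isolates describes how the replicates arose, so their spread may be partly technical. Scripts ran under Python 3.11.15 with pandas 2.3.3 and numpy 2.4.6, figures under matplotlib 3.10.9, exact intervals under scipy 1.17.1, and edgeR 4.0.16 in R 4.3.3 gave TMM factors alone, on expected counts rounded to whole numbers. The 2-fold calls were tested on simulated data. Alternatives covered units, pseudocounts, filters, fold limits, scaling, transcript sets and single replicates.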

Additional observations from a re-analysis of the deposited data

How the results depend on the processing

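No paired analysis was possible because the series held 1 group. The number of separated neighbours in the order of the 10 genes was 1, and 0 with the limit at the 99th percentile. Among all 45 pairs the number separated was 22, against 13 with that limit and 29 with the limit taken from genes at a mean of 10 TPM. The number of the 10 genes past 2-fold was 1, and it was 0 with the posterior mean, with 1 added to TPM, with a filter at a mean of 10 TPM and with a 3-fold limit, and 3 with a 1.5-fold limit (Hapln1, Bgn and Lum). The share of all genes past the limit was 19.0%, against 12.4% with 1 added, 8.15% with the filter at 10 TPM, 36.3% with the 1.5-fold limit and 8.39% with the 3-fold limit. With no filter on level it was 28.2%. The difference of Postn, 0.00, took either sign, between −0.04 with TMM factors and 0.04 with the posterior mean. No call past 2-fold changed sign under the alternatives run. Leaving out each replicate in turn kept 1 separated neighbour. Levels in FPKM, or in TPM over protein-coding genes alone, are on another scale. Protein-coding genes held 262919 TPM in replicate 1 and 265430 TPM in replicate 2. Scaled to those genes alone, 9 of the 10 genes were detected in place of 8, with Has2 at a mean of 1.44. The place of Has2 below 1 TPM therefore depends on the scale. The shares of most Fn1 and Agrn exons moved by more than 1 SD when non-coding transcripts were left out, and those of both Vcan exons when counts replaced TPM. The alternatives that turned to transcripts spanning an exon, to protein-coding transcripts in the gene differences, to CPM for genes of the related lists (7 past 2-fold in place of 12), and to transcripts at 5% or more for the share limit were chosen after seeing the data. In that last set the limit was 52.1 points in place of 38.0. With 2 replicates no difference could be tested, and transcript shares rest on reads assigned between overlapping forms by the authors' model.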

Other observations

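Transcript forms of genes other than Fn1, Postn, Vcan and Agrn also differed between replicates, and were looked at after their values were seen. Tnc-201 held 57.2% of Tnc TPM in replicate 1 and 0.00% in replicate 2, while Tnc-204 held 27.5% in replicate 1 and 69.2% in replicate 2. Both encode 6057 coding bases, so the tables show no difference in protein length between them. The other 2 coding forms of Tnc differ from them in coding length. Tnc-203, with 6330 coding bases, held 10.8% in replicate 1 and 2.24% in replicate 2. Tnc-202, with 2496, held 4.62% in replicate 1 and 28.6% in replicate 2. For Tnc-201 and Tnc-204 the difference was beyond the limit of 38.0 points, and for Tnc-201 it was also beyond the limit of 52.1 points among transcripts at 5% or more. Bgn-201 held 76.7% of Bgn TPM in replicate 1 and 57.8% in replicate 2, and Bgn-207 held 15.0% in replicate 1 and 41.0% in replicate 2. Both encode 1107 coding bases. Dcn, Lum, Has2 and Hapln1 rested on 1 transcript for at least 99.9% of their TPM in both replicates. Tnr, the tenascin of the nervous system, had 2.35 TPM in replicate 1 and 0.01 TPM in replicate 2.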
